A study of Drosophila melanogaster with 2 samples.

Results

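The small ribosomal subunit protein genes were the 39 protein-coding genes, of 13968 on the chromosome arms in the Ensembl BDGP6 annotation, whose symbol starts with RpS, plus sta, which encodes the protein RpSA. The rule reads the symbol and no measured value, although it was set with earlier results of these data known. They were read against peak lists from chromatin immunoprecipitation with sequencing (ChIP-seq) of Crc, the fly ATF4, a leucine zipper transcription factor of the integrated stress response. The flies were of the crc-MiMIC-GFP line, in which an added exon in an intron of crc makes the gene's own product a fusion with enhanced green fluorescent protein (eGFP), and an antibody against GFP was used. Whole embryos of pooled sexes, 0 to 24 h old, formed 1 group of 2 biological replicates, both of that 1 line. No library from flies without the tag was analysed here. Peak lists hold no expression values, so the labelled stage was not checked against marker genes.

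The small subunit of the ribosome binds messenger RNA, scans for the start codon and reads the code, and its proteins are needed in every growing cell. Loss of 1 copy of many of these genes gives the fly a Minute phenotype, with slow growth and short bristles. Fly ribosomal protein genes are known for a pyrimidine-rich start, the TCT initiator, in place of the usual initiator. ATF4 factors are known for inducing genes of amino acid supply while initiation on most messages is held down.

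On the dm6 build the authors gave 24369 candidate peaks for the pooled reads and 30000 for each replicate. The authors also gave 2420 optimal peaks that passed their irreproducible discovery rate filter. By its label the pooled list holds peaks and background, as input to that filter. Every optimal peak was a pooled candidate with the same signal, the caller's own score for a peak, and together they took pooled ranks 1 to 2420. A gene was called when the summit of an optimal peak lay within 500 bp of an annotated start. Neither labels nor lists state the read depth behind the peaks. Replicates were therefore compared by rank, and a signal is comparable within its own list.

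The start regions of 9 members are printed first, as sequences that later paragraphs refer to. Each runs 5′ to 3′ on the gene's strand, from 60 bases before an annotated start to 20 bases after it, from the RefSeq copy of the Release 6 genome. Capitals mark 2 things: the TCT initiator, NNCTTTNN with C or T at each N, and, upstream of it in RpS27, RpS21, RpS28b and RpS19a, a run of bases that these promoters share. RpS27, RpS21, RpS28b, RpS19a, RpS5a and RpS14b were called; RpS5b, RpS3 and RpS14a were not.
RpS27, chr3R:25247452-25247532, reverse strand: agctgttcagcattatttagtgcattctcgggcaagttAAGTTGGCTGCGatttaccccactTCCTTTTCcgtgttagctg
RpS21, chr2L:2856051-2856131, forward strand: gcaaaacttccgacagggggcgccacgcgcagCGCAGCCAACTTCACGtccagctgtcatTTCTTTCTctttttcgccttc
RpS28b, chrX:9554563-9554643, forward strand: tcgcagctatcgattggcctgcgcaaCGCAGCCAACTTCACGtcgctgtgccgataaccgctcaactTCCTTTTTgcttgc
RpS19a, chrX:16637834-16637914, forward strand: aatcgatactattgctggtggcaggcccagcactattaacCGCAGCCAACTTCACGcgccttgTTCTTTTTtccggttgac
RpS5a, chrX:17148244-17148324, reverse strand: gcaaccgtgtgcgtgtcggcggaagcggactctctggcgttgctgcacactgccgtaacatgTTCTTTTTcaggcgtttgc
RpS5b, chr3R:14901543-14901623, reverse strand: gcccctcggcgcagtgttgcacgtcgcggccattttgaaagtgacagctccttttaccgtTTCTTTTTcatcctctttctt
RpS14b, chrX:7934838-7934918, forward strand: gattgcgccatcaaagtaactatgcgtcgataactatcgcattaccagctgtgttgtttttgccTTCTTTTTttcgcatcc
RpS14a, chrX:7933682-7933762, forward strand: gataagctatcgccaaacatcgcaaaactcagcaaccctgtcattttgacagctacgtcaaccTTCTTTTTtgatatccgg
RpS3, chr3R:23358752-23358832, forward strand: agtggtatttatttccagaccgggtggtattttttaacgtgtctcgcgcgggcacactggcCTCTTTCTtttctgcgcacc

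Crc-eGFP candidates were found at nearly every small subunit gene, but they failed the authors' filter at about as many genes as they passed. Of the 39 genes, 37 had a pooled candidate within 500 bp of a start, 94.9% beside 45.5% of all protein-coding genes. Optimal peaks called 19 of them, 48.7% beside 11.5% of all protein-coding genes. Among genes with a candidate, 19 of 37 were called (51.4%), beside 25.3% of all genes with a candidate. The 18 others had candidates that failed, and 2 genes, 1 of them RpS19b, had none. At the 37 genes the strongest candidate had a median pooled signal of 64.7, from 18.9 to 361.5, beside a median of 37.8 over the 6352 protein-coding genes with a candidate.

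**Figure D1:**
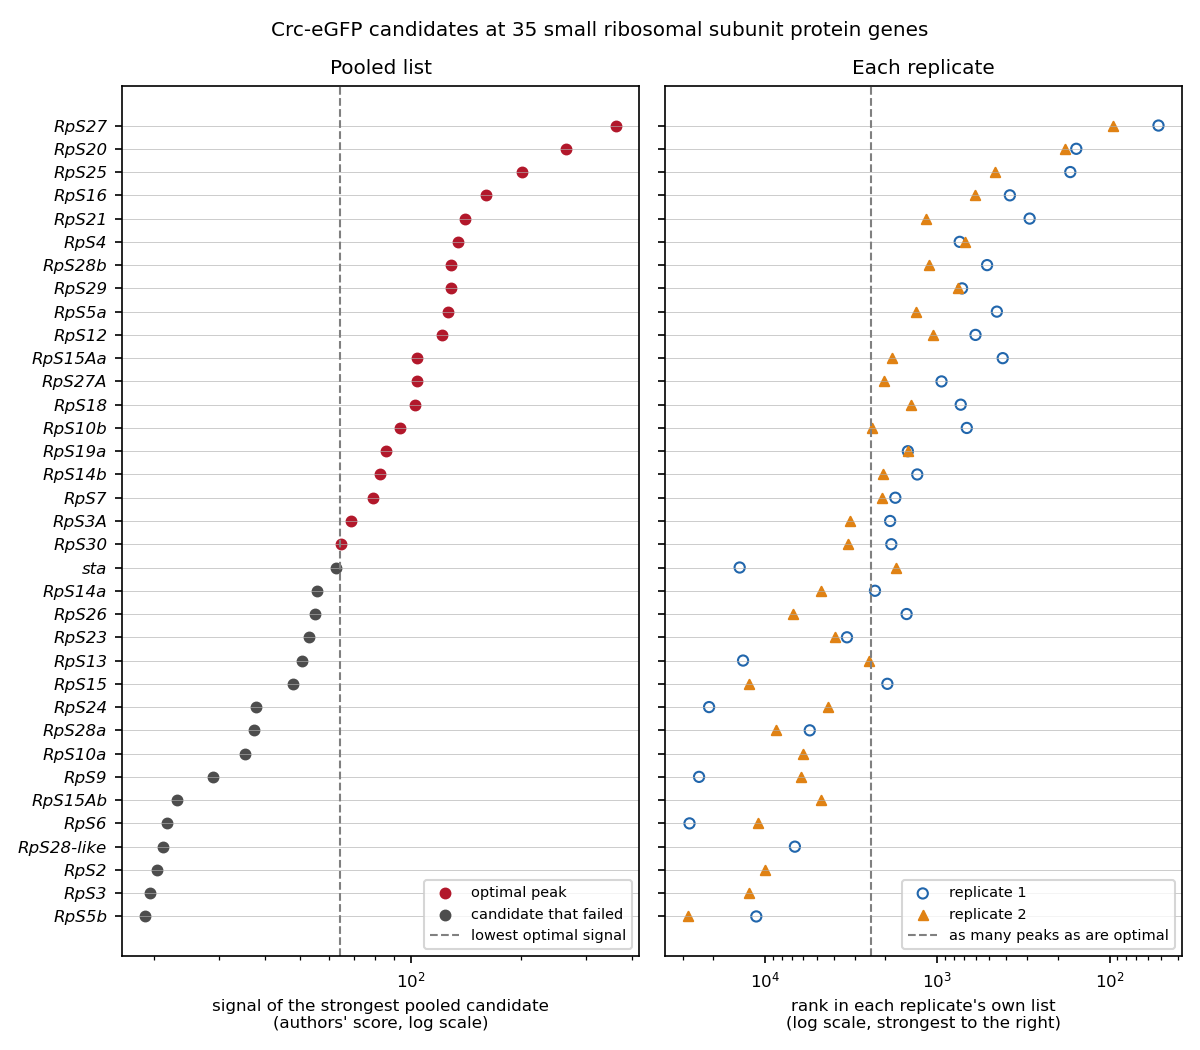
Crc-eGFP candidates at 35 of the 37 small subunit genes that had a pooled candidate, ordered by pooled signal (left, log scale) with the rank of each gene's strongest candidate in each replicate's own list beside it (right, log scale). The 19 called genes lie right of the lowest optimal signal, and the ranks of the replicates part widely at failed genes such as sta (14033 and 1740) and RpS24 (21116 and 4311).

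The strongest member was RpS27, on 3R. It had a pooled signal of 361.5, at rank 68, in a peak at 3R:25247395-25247648 whose summit lay 18 bp upstream of the gene's outer start and farther from the inner one printed above. Replicate 1 gave it a signal of 165.9 and rank 52, and replicate 2 a signal of 197.1 and rank 96, with summits within 10 bp of the pooled one. It stood above 99.1% of the genes with a candidate. The promoter genes nearest to it in signal were Hpf1 (361.3), Alg3 (364.3), amon (364.9) and Adck1 (366.2), none of them a ribosomal protein gene.

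RpS20, a universal protein of the subunit's head, came next with a pooled signal of 264.2 and rank 153. It had signals of 106.3 in replicate 1 and 147.1 in replicate 2, where it ranked 156 and 182. Its optimal summit lay 199 bp upstream of the start, the farthest among the strongest peaks of the called members. A second candidate at its start, with the summit 2 bp downstream, had a signal of 47.7 and failed. RpS25 was the member with 2 optimal peaks: 1 at 48 bp upstream, with a pooled signal of 200.7 (101.7 in replicate 1 and 96.9 in replicate 2), and 1 at 247 bp upstream with 67.96.

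A run of 7 members followed. RpS16 had 160.6, RpS21 had 140.3, RpS4 had 134.3, RpS28b had 128.5, RpS29 had 128.4, RpS5a had 125.9 and RpS12 had 121.9. RpS12 is the protein through which fly cells sense Minute mutations in their competition with normal neighbours. Its peak at 3L:13023249-13023356 ranked 819 in the pooled list, 600 in replicate 1 and 1055 in replicate 2, with signals of 58.9 and 62.6. RpS21 was uneven between the libraries, with a signal of 83.5 and rank 291 in replicate 1 and of 59.3 and rank 1158 in replicate 2. RpS4 and RpS29 were even, at ranks 741 and 694 for RpS4 and 718 and 757 for RpS29.

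The remaining 9 called members had pooled signals from 64.7 to 104.1. RpS15Aa (104.1), RpS27A (103.7), RpS18 (102.8) and RpS10b (93.3) led them, followed by RpS19a (85.5), RpS14b (82.6) and RpS7 (78.8). RpS27A is made as a fusion with ubiquitin and RpS30 as a fusion with a protein like ubiquitin, so each message gives the cell a second protein. RpS3A, the member on chromosome 4, had 68.9 in the pooled list, with 31.9 in replicate 1 and 33.0 in replicate 2. RpS30 was the weakest called member, with 64.7 (32.2 in replicate 1 and 32.5 in replicate 2), just above the lowest optimal signal of 63.98.

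Just below that limit was sta, with a pooled signal of 62.4 and rank 2516. The libraries differed widely there: it had a signal of 14.1 and rank 14033 in replicate 1 and 46.9 and rank 1740 in replicate 2. The replicate 1 candidate of sta also had its summit 505 bp from the pooled one, so it was a different region. RpS14a (55.7), RpS26 (54.8), RpS23 (52.8), RpS13 (50.5) and RpS15 (47.9) were among the next. RpS13 is a classic Minute gene.

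The weakest candidates included members with well-known roles. RpS6, the target of S6 kinase downstream of TOR, had a pooled signal of 21.7 and rank 18110, with 10.7 in replicate 1 and 16.2 in replicate 2. Its replicate 1 summit lay 254 bp from the pooled one. RpS3, a protein of the message entry site and a Minute gene, had 19.5 pooled and 15.3 in replicate 2, with that summit 183 bp from the pooled one. It had no candidate in replicate 1. RpS2, also at the entry site, had 20.3 pooled and 17.1 in replicate 2, and again none in replicate 1. These values lay near the bottom of the pooled list, whose lowest signal was 18.8, and RpS5b, at 18.9, ranked 24169 of its 24369 peaks. RpS24 (37.9), RpS28a (37.5), RpS10a (35.4), RpS9 (28.95), RpS15Ab (23.1) and RpS28-like (21.1) lay between. For RpS19b the nearest pooled candidate was an optimal peak of 90.7, 845 bp upstream and 463 bp inside CG5854.

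In both replicate lists 32 members had a candidate (82.1%, beside 34.7% of all protein-coding genes): the 19 called ones and 13 that failed. Both replicate summits lay within 100 bp of the pooled summit at 18 of the 19 called members, the exception being RpS15Aa, at 142 bp in replicate 2, and at 6 of the 13 failed ones. Over the 24 members where both summits matched in this way, the signals of the 2 libraries had a Spearman rank correlation of 0.883 and log2 signals a Pearson r of 0.842. This is across genes of the same 2 libraries, given as a description. Members whose summits differed were left out, and the 18 called ones had passed the authors' filter. Some agreement was therefore built in. Replicate 1 ranked 26 of the 32 genes higher than replicate 2 did. Among the 2420 strongest candidates of replicate 1 there were 24 members (61.5%, beside 11.8% of all genes), and among those of replicate 2 there were 18 (46.2%, beside 11.5%). In replicate 1 these were all 19 called members with 5 others, among them RpS14a, RpS15 and RpS26, and in replicate 2 they were 17 called members with sta. RpS3A and RpS30 fell short in replicate 2, at ranks 3197 and 3300.

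Small subunit proteins are either universal, with a bacterial counterpart, or without one. Of the 18 genes for universal proteins 7 were called (RpS20, RpS16, RpS29, RpS5a, RpS15Aa, RpS18 and RpS14b), with a median pooled signal of 55.7 over the 17 with a candidate. Of the other 21 genes 12 were called, with a median of 73.8 over 20. The difference was not tested. By arm, 6 of 9 members on X were called, 6 of 12 on 3R, 2 of 4 on 3L, 2 of 6 on 2L, 2 of 7 on 2R and the member on chromosome 4. All protein-coding genes on X were called at 10.6%, and on the other arms with members at 6.25 to 12.7%.

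The large subunit genes, whose symbols start with RpL, were called more often: 36 of 54 (66.7%), and 36 of the 50 with a candidate (72.0%), with a median pooled signal of 108.7. The gap of 17.95 percentage points was not tested. It shrank to 11.25 points among the strongest candidates of replicate 2 and to 8.83 points among those of replicate 1, where small subunit genes were called at 61.5% and large subunit genes at 70.4%. The mitochondrial small subunit genes had 6 of 26 called (23.1%) and a median pooled signal of 50.8 over the 21 with a candidate.

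**Figure D2:**
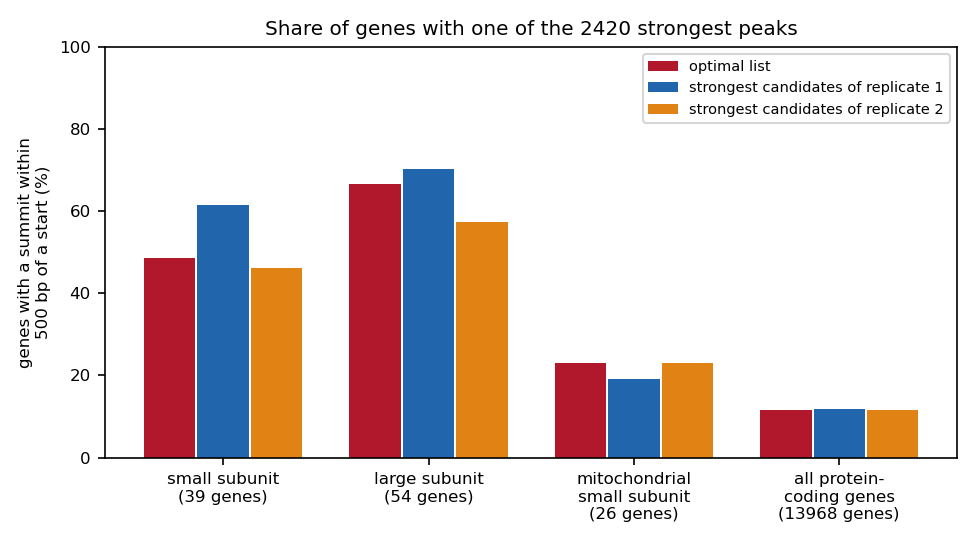
Percent of genes with a summit within 500 bp of a start among the 2420 optimal peaks and among the 2420 strongest candidates of each replicate, for 4 sets of genes. Small subunit genes stood at 46.2 to 61.5%, below the large subunit genes and above the mitochondrial small subunit genes in each of the 3 lists.

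Summits sat close to the starts of small subunit genes, mostly just upstream. Over the 37 genes with a candidate, the nearest summit lay a median of 31 bp from a start, beside 124 bp for all protein-coding genes with a candidate. It was within 100 bp at 32 of 37 (86.5%), beside 42.2%. In the 50 bp just before the start lay 22 of the 37 summits, 59.5% beside 13.2%. Among the 19 called members the summit of the strongest peak was upstream at 17, on the start at RpS30 and 16 bp downstream at RpS18. It was within 60 bp at all of them but RpS20 and RpS27A, whose summits were 199 and 98 bp upstream. The large subunit genes had a similar distance, with a median of 37 bp and 86.0% within 100 bp, but not the same side: the summit was upstream or at the start at 66.0% of them, beside 83.8% of the small subunit genes and 68.6% of all genes with a candidate. The difference was not tested.

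**Figure D3:**
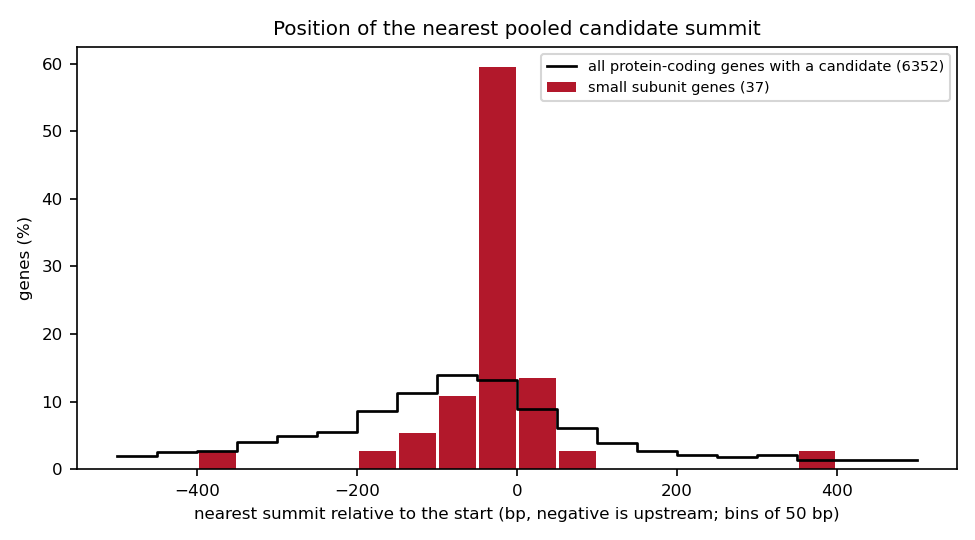
Position of the nearest pooled candidate summit relative to an annotated start, in bins of 50 bp, for 37 small subunit genes (bars) and for all 6352 protein-coding genes with a candidate (line). The bin just upstream of the start held 59.5% of the small subunit genes and 13.2% of all genes.

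The TCT initiator, printed in capitals above, stood within 10 bp of a start at 26 of the 39 genes (66.7%), beside 1.74% of all protein-coding genes and 81.5% of the large subunit genes. Its central C lay 0 to 9 bases after the annotated start. It was found at 15 of the 19 called members and at 11 of the 20 others. RpS20, RpS25, RpS12 and RpS3A were the called members without it. The presence of these letters did not settle the signal: RpS5b and RpS3 had it with signals of 18.9 and 19.5. At the 15 called members with it, the summit lay from 100 bp upstream to 7 bp downstream of the C, with a median of 34 bp upstream.

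Of the other elements, the DNA replication-related element (DRE, TATCGATA) was the commonest. It occurred from 100 bp before to 50 bp after a start, on either strand, at 13 of the 39 genes (33.3%), beside 8.33% of all protein-coding genes and 11.6% of all called genes. At 8 of the 19 called members it was present: RpS25, RpS16, RpS29, RpS12, RpS15Aa, RpS10b, RpS7 and RpS30. Motif 1 (GGTCACACT) was at 4 members, sta, RpS23, RpS15 and RpS9, none of them called (10.3%, beside 5.81% of all genes). The E-box CACGTG was at RpS28b, RpS5a and RpS30, all called (7.69%, beside 3.11%). Among all genes, 123 of the 812 with Motif 1 and 82 of the 434 with the E-box were called, beside 1605 of all 13968. GAGAG stood at RpS5a and RpS19a (5.13%, beside 24.0%), and TATAAA at 7 members (17.9%, beside 28.4%). The large subunit genes had the DRE at 25.9%, Motif 1 at 9.26%, the E-box at 24.1%, GAGAG at 18.5% and TATAAA at 13%. The C/EBP-ATF response element (CARE, TGATGNAAN with C or T last) was in none of the 39 windows, beside 1.19% of all genes. It was at 3.7% of the large subunit genes. Within 100 bp of the 19 called summits it was also absent, beside 1.23% of the 1224 optimal peaks near a start. At shares this low, a set of this size may well hold none. Within 100 bp of the called summits the DRE was at 6 of 19 (31.6%, beside 6.94%), without RpS16 and RpS30. The E-box was there at RpS4 and RpS28b (10.5%, beside 2.94%), and not at RpS5a or RpS30.

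A run of 16 bases, CGCAGCCAACTTCACG, was the longest shared by 3 or more of the 32 member promoters searched, and was looked for only after the data were seen. It lay in RpS21, RpS28b and RpS19a on the gene's strand, with its centre 12.5 to 26.5 bp before a start and 3.5 to 9.5 bp upstream of the pooled summit. The window from 100 bp before to 50 bp after a start held it at 4 of all 13968 protein-coding genes, the fourth being CG5180. All 4 were called, with pooled signals of 140.3 at RpS21, 128.5 at RpS28b, 112.3 at CG5180 and 85.5 at RpS19a. In CG5180 the run was 592.5 bp from the strongest summit, so it was not under that peak. RpS27, the strongest member, had 12 of its bases on the opposite strand. That shorter form, CGCAGCCAACTT, was at 17 genes, of which 10 were called (58.8%), beside 11.5% of all protein-coding genes. The 17 include the 4 members, all called, and 2 large subunit genes. The 8-base pieces of the 16-base run were at 78 to 229 genes each, called at 13.2 to 24.1%. Because the run was taken from member promoters, shares that count those members are description only. A link with the peaks was not tested.

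At 8 of the 19 called members the peak also lay within 500 bp of a start of another protein-coding gene, 42.1% beside 56.4% of all called genes, so it cannot be given to 1 of them. The 5 strongest members were all among these. RpS27 shared its peak with Nup37, a nucleoporin gene whose start lies 144 bp away on the other strand. RpS20 shared with CG17271, RpS25 with CG4820, RpS16 with CG4294 and RpS21 with CG3104, always on the opposite strand. Between the starts nearest to the summit lay 248 to 460 bp. RpS16 and RpS21 each also have an outer start that lies closer to the other gene. RpS18 faced plu, a regulator of replication in the early embryo, at 295 bp, and RpS19a faced Rok at 480 bp. RpS27A and Ip259 begin at the same base on the same strand. The summit of the strongest peak was nearer to the start of the small subunit gene in all of these but RpS20 and RpS27A. For RpS20 it was 134 bp from CG17271 and 199 bp from RpS20, and for RpS27A both distances were 98 bp. Shared called members had a median pooled signal of 150.5 and the 11 unshared ones 104.1. The large subunit genes went the same way, with 157.1 and 119.0, and over all called genes the medians were 104.6 and 103.3. The difference was not tested. The number of shared peaks followed the distance limit, with 4 at 200 bp and 15 at 1000 bp.

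Failed candidates were shared as well. That of RpS13 lay 50 bp from CSN8, of the COP9 signalosome, and 143 bp from RpS13. That of RpS28a was 169 bp inside Axn, the axin gene of Wnt signalling, and 363 bp upstream of RpS28a. The candidates of sta, RpS14a, RpS15Ab and RpS28-like were shared with inc, Dhdds, Lsm10 and numb.

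In each of the 6 paralogue pairs, exactly 1 copy was called. Members in no pair were called at the same rate, 13 of 26. Both copies were called in 1 pair at a limit of 1000 bp (RpS19b joined) and in 1 pair without replicate 2 (RpS14a joined), and neither copy in 3 pairs among the stronger 1210 optimal peaks. RpS5a, the copy used throughout the body, had pooled, replicate 1 and replicate 2 signals of 125.9, 67.7 and 54.8. RpS5b, the copy known from the female germ line, had 18.9, 15.2 and 9.66, and the summits of its replicates lay 264 and 285 bp from the pooled one. RpS28b had 128.5, 63.3 and 60.8, whereas RpS28a had 37.5, 19.5 and 18.6, with the summit 363 bp upstream. RpS28b was higher than RpS28a by a factor of 3.43 in the pooled list, 3.25 in replicate 1 and 3.27 in replicate 2, and the third copy, RpS28-like, had a pooled signal of 21.1.

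RpS10b had a pooled signal of 93.3 beside 35.4 for RpS10a, and in replicate 2 it had 38.99 beside 22.8, so the ratio was 2.64 pooled and 1.71 in replicate 2. RpS15Aa had 104.1 beside 23.1 for RpS15Ab, and 45.7 beside 26.2 in replicate 2, with ratios of 4.51 and 1.75. Neither RpS10a nor RpS15Ab had a candidate in replicate 1. RpS19a had 85.5 and RpS19b, another copy known from the germ line, had no candidate in any list. The called copy is the stronger in the pooled list by the way it was called. In replicates 1 and 2, which make up the pooled reads, it was also the stronger or the copy with a candidate in 6 of 6 pairs.

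RpS14a and RpS14b were the closest pair, in place and in signal. They are tandem copies on X with starts 1156 bp apart, and each had its own candidate, the summits being 1165 bp apart. RpS14b had pooled, replicate 1 and replicate 2 signals of 82.6, 38.7 and 42.8, and RpS14a had 55.7, 28.6 and 26.1. The replicate 2 summit of RpS14a lay 171 bp from the pooled one, toward Dhdds, so that value may not be of the same peak. The ratios were 1.48, 1.35 and 1.64, so that RpS14b was above and RpS14a below the lowest optimal signal. The 300 bp compared at the starts of the 2 copies in each pair, mostly upstream, were 45.0 to 51.0% identical by edit distance. Between promoters of members that are no paralogues the identity was 47.3% at the median and reached 54.7%.

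**Figure D4:**
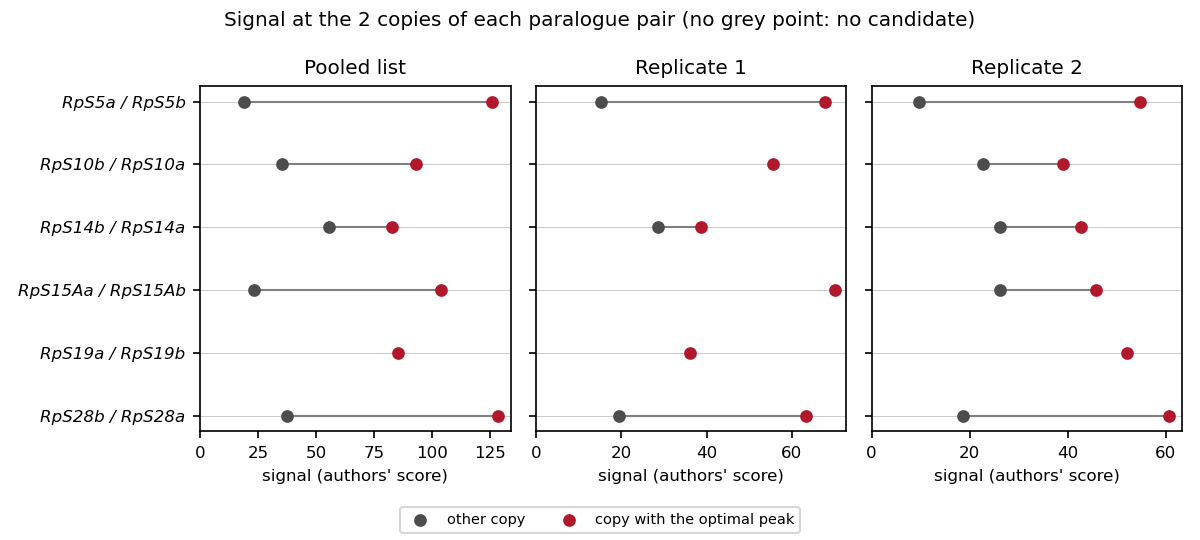
Signal of the strongest candidate at both copies of the 6 paralogue pairs, in the pooled list and in each replicate's list; the signal scale differs between lists, and a copy with no point had no candidate. The gap was narrowest at RpS14b and RpS14a (82.6 and 55.7 pooled) and widest at RpS5a and RpS5b (125.9 and 18.9).

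Small nucleolar RNAs, which guide the modification of ribosomal RNA, lie within 13 of the 39 genes on the same strand (33.3%, beside 0.601% of all protein-coding genes). Of these 13 hosts 8 were called (61.5%), beside 48.7% of all 39 members and 31 of the 84 hosts among all protein-coding genes (36.9%), the 13 included. The called hosts were RpS20, RpS16, RpS4, RpS29, RpS5a, RpS12, RpS7 and RpS3A. RpS5a held 14 of them and RpS7 held 7.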

How the data were processed

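ChIP-seq peak lists of Crc-eGFP in whole embryos, 2 biological replicates of 1 group by the labels' replicate numbers, were used as the authors deposited them on dm6: 1 list of candidates per replicate, 1 of the pooled reads and the optimal list. Chromatin was sonicated to 200 to 800 bp, per the labels. A control file entered each replicate's list, per the deposited listings, and was not analysed here. Which caller was used, with which settings and how many reads, is unstated in the labels and lists. Each deposited peak carries the authors' signal, with no stated normalization, and −log10 of a q-value, used here only to break ties in rank. The replicate lists stop at exactly 30000 peaks, which may cut off weaker ones. The dm3 lists were not used.

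Summits (start plus offset, printed 1-based) were assigned to every protein-coding gene with a transcript start within 500 bp, by Ensembl BDGP6.54, release 115. Bases were read from RefSeq's copy of Release 6, whose arm lengths hold all peaks. Elements were counted as exact letters. No test was run: members and lists were chosen with earlier results of these data known, and counts stand beside those of all genes. The assignment was checked on simulated data. The named genes are the members and the genes that share a peak with a member, plus the 4 promoter genes nearest in signal to the strongest member; the 16-base run with its other gene, the genes of the summits within 1000 bp, the small nucleolar RNAs and the promoter identities were chosen after values were seen. A few members are counted but not reported by name here. Paralogue pairs were those whose symbols differ in a final a or b. Alternatives were other distance limits, start definitions, peak sets and assignments, and leaving out each replicate, where the 2420 strongest candidates of the other stood in for the optimal list. Computing was done in Python 3.11.15 with numpy 2.4.6, pandas 2.3.3, scipy 1.17.1 and matplotlib 3.10.9.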

Additional observations from a re-analysis of the deposited data

How the results depend on the processing

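The count of 19 called small subunit genes stayed within 1.5 times under all 9 alternatives, from 13 among the stronger 1210 optimal peaks to 24 without replicate 2 (18 without replicate 1). At 1000 bp it was 21, with RpS15 and RpS19b added through peaks nearer to CG4927 and CG5854, and with each peak given to the nearest start it was 17, without RpS20 and RpS27A. The share of all protein-coding genes called also moved. Beside 33.3% of members it was 6.35% among the stronger peaks, and beside 61.5% it was 11.8% without replicate 2. Without replicate 1 it was 11.5% beside 46.2%, at 1000 bp 13.5% beside 53.8%, and by nearest start 8.29% beside 43.6%. The median pooled signal was 68.9 at 200 bp, 69.7 at 1000 bp and 62.8 with the candidate nearest to a start; the replicates' own lists, on another scale, gave 35.9 to 38.5. The median distance was 28 bp at 200 bp, by the narrower limit itself, 43 bp with the gene's 5' end alone, and 26 to 29.5 bp in the single replicates. Members with a candidate in both replicates fell from 32 to 17 when only the 2420 strongest of each counted. The gap between large and small subunit genes was 12.8 points at 1000 bp, 22.2 among the stronger peaks, 16.1 with the start inside the peak and 21.2 by nearest start, and 8.83 to 11.25 points without a replicate; the cause was not tested. Shared peaks numbered 4 at 200 bp, 15 at 1000 bp, 2 with the start inside the peak and 0 by nearest start, by the construction of these settings. Pairs with exactly 1 called copy, an alternative count chosen after seeing the data, numbered 6, with 5 to 6 without a replicate, 5 at 1000 bp and 3 among the stronger peaks. The TCT initiator was at 30 members within 50 bp and at 2 exactly at a start. No paired analysis was possible because there is 1 group. A member at the weak end of the pooled list, near its lowest signal of 18.8, differs little from one with no candidate, and the unstated read depth limits comparisons between libraries.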
